A study of Oryza sativa Japonica Group with 4 samples.

Results

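The auxin response genes of rice were described in drought-treated leaves of 2 genotypes. Members were the genes of the deposited expression table whose description names auxin response, Aux/IAA, SAUR, auxin efflux or indole-3-acetic acid amido synthetase, or whose gene name starts with OsIAA, OsARF, OsSAUR, OsPIN or OsGH3. This gave 123 of 33744 genes. One of them, OsARF3 (Os08g0248900), encodes a small GTPase of the ADP-ribosylation type that only shares the abbreviation, and it is left out of the counts. The remaining 122 members comprised 31 Aux/IAA genes, 25 auxin response factor (ARF) genes, 45 SAUR genes, 8 GH3 genes, 12 efflux carrier genes (PIN and PIN-likes, PILS) and BG1.

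RNA was taken from leaves of Oryza sativa Japonica seedlings aged 14 days, after 6 h of drought, with 2 libraries per genotype. The drought resistant genotype, by its label, is OE13, and the drought sensitive one is OE13-2KR/oswox13-1, which by name carries the 2KR form in an oswox13-1 background. The labels do not detail either allele further. The series asks how acetylation of OsWOX13 bears on drought resistance. OsWOX13 encodes a homeobox transcription factor. The 2KR form and the oswox13-1 background cannot be told apart here, and neither an untransformed line nor watered plants were among the 4 libraries. Nothing in the labels tells what drives expression in OE13 or how many lines or plants stand behind a library. All p-values below therefore rest on the spread among these 4 libraries, and that spread may be technical.

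Auxin acts by removing repressors. The hormone joins TIR1/AFB receptor proteins to Aux/IAA proteins, which are then degraded, and this frees the ARF transcription factors that Aux/IAA proteins hold back. ARFs bind promoters of early response genes, among them Aux/IAA genes themselves, SAUR genes, whose small proteins promote cell expansion in Arabidopsis, and GH3 genes, whose enzymes couple the hormone to amino acids. PIN carriers move auxin out of cells, while PILS carriers sit in the membrane of the endoplasmic reticulum and hold auxin inside the cell, as worked out in Arabidopsis. Auxin levels and transport are also known to shift when plants lose water.

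Levels are the deposited FPKM values, by name fragment counts scaled by gene length and library total, though no source tells how they were computed. They are given in the order OE13-2KR/oswox13-1 replicates 1 and 2, then OE13 replicates 1 and 2. Differences are OE13-2KR/oswox13-1 minus OE13 on the log2(FPKM + 1) scale, which understates differences of low genes, with standard errors (SE) and p-values from limma fitted over 20174 genes with a mean of at least 1 FPKM. Adjusted p is by Benjamini-Hochberg over those genes. FPKM summed to 931335 to 941593 per library, 3973 to 4819 genes were listed at 0, and read depth is unknown. Among tRNA genes of length 72, the lowest values above 0 were 0.00448 and 0.00566 FPKM in OE13-2KR/oswox13-1, against 0.0166 and 0.0447 in OE13. For 1 whole fragment to give values so small, libraries would have to be extremely deep, so low values may not stand for whole fragments. Of the markers examined, 11 leaf mesophyll genes summed to 15037 and 8030 FPKM in OE13-2KR/oswox13-1, against 24873 and 12746 for OE13. These sums overlap, but each of the 11 had a lower mean in OE13-2KR/oswox13-1. For RBCS (Os12g0274700) and Lhca6 the libraries did not overlap. The shoot meristem gene OSH15 was listed at 0 in all 4 libraries, and both meristem genes together summed to 0.0183 to 0.148 FPKM. Marker genes of dividing cells, 8 in number and 1 of them at 0 throughout, summed to 12.2 and 10.7 FPKM in OE13-2KR/oswox13-1, against 7.44 and 6.36 in OE13, without overlap. Only 2 of the 8 reached a mean of 1 FPKM, and these made up 10.002 and 10.019 FPKM against 6.29 and 5.37, while 2 of the 8 had a lower mean in OE13-2KR/oswox13-1. Their part in the auxin results was not tested. In whole leaves, fewer cells of a type and less RNA per cell cannot be told apart.

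Of the 122 auxin members, 70 reached a mean of 1 FPKM and were tested. The other 52 lay under it, and 8 were listed at 0 in all 4 libraries. The families differed in how many members were measurable: 25 of 31 Aux/IAA, 23 of 25 ARF, 9 of 45 SAUR, 6 of 8 GH3 and 6 of 12 efflux carrier genes. One tested member, OsIAA14, passed the filter through OE13 alone. Levels per length also differed by family: the median tested ARF stood at 25.5 FPKM, Aux/IAA at 17.3, efflux carriers at 16.2, SAUR at 12.5 and GH3 at 2.95, beside 10.97 over all tested genes. Together the members made up 0.315% and 0.291% of the FPKM total in OE13-2KR/oswox13-1, against 0.303% and 0.297% for OE13, so the total overlapped between genotypes.

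No member passed an adjusted p of 0.05 in limma, a threshold that 1 of all tested genes (0.00496%) passed. With an unadjusted p below 0.05, 6 members (8.57%) lay higher and 8 (11.4%) lower in OE13-2KR/oswox13-1, beside 8.00% and 12.0% of all tested genes. The libraries of the genotypes did not overlap for 19 members on the higher side (27.1%) and 16 on the lower (22.9%), beside 23.4% and 32.8% of all tested genes. As one list, then, the auxin members were called about as often as genes in general. The median difference was -0.14 over members and -0.083 over all tested genes. The families did not share a direction. The lower calls were 6 Aux/IAA genes, 1 ARF gene and BG1, and the higher calls were 3 PILS genes, 2 SAUR genes and 1 ARF gene. The counts depend on single libraries, among the members as among all tested genes. With 1 library left out, the median difference was -0.21 to -0.044 over members and -0.11 to -0.051 over all tested genes.

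**Figure D1:**
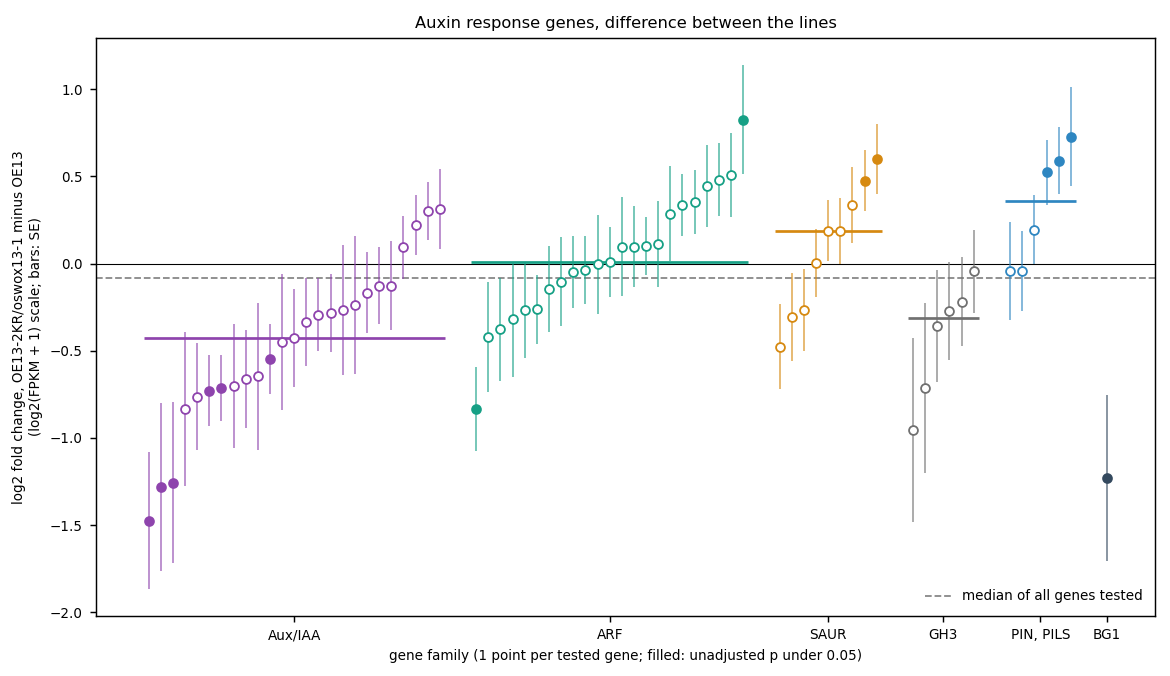
Difference of each tested auxin member, OE13-2KR/oswox13-1 minus OE13 on the log2(FPKM + 1) scale, by family, with 1 point per gene, vertical bars for the SE, horizontal lines for family medians and filled points for an unadjusted p under 0.05. Aux/IAA genes sit mostly below 0 (21 of 25) and ARF genes on both sides, and the dashed line marks the median of all genes tested.

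The Aux/IAA repressor genes were mostly lower in OE13-2KR/oswox13-1. Of 25 tested, 21 had a negative difference (84.0%, beside 56.8% of all tested genes) and 4 a positive one, with a median of -0.43 beside -0.083 over all tested genes. At unadjusted p 6 were lower (24%, beside 12.0% of all tested genes) and 0 higher. Libraries did not overlap for 11 on the lower side (44.0%, beside 32.8%) and 4 on the higher (16%, beside 23.4%). Both the 21 and the 11 include OsIAA14, which passed the filter through OE13 alone. Relative to the median of all genes, the family median was -0.35 as deposited, -0.34 after median-ratio scaling and -0.33 after quantile normalisation, where the genes with a negative difference numbered 21, 21 and 18. The lower calls depend on single libraries, and with 1 library left out the family median was -0.54 to -0.30. The same 2 libraries often stood at the ends. Of the 25 genes, 13 were lowest in OE13-2KR/oswox13-1 replicate 2 (52.0%, beside 39.2% of all tested genes) and 12 highest in OE13 replicate 2 (48.0%, beside 31.4%).

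OsIAA5 (Os01g0675700, chr1:27777432-27780995, plus strand, in the deposited coordinates, read as IRGSP-1.0) encodes one such repressor. Its level was 25.9 and 21.6 FPKM in OE13-2KR/oswox13-1, against 37.4 and 41.5 in OE13. Both OE13 libraries were above both of the other line, and replicates lay close together. The difference was -0.71 (SE 0.19, n = 2 and 2, limma adjusted p = 0.195), the smallest p of the family.

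OsIAA21 (Os06g0335500, chr6:13345347-13349055, plus strand) had the largest difference among the tested Aux/IAA genes. Its level was 39.7 and 20.7 FPKM against 63.1 and 105. The lines did not overlap, but in each the replicates were far apart, with means of 30.2 ± 13.5 and 84.1 ± 29.7 (SD, n = 2). The difference was -1.47 (SE 0.39, limma adjusted p = 0.195), with -1.11 if OE13 replicate 2 is left out and -1.02 if replicate 2 of the other line is. A second gene of that name, Os06g0355300, lay under 1 FPKM.

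OsIAA9 (Os02g0805100, chr2:34348582-34349843, plus strand) was a low but steady gene. It measured 4.33 and 4.69 FPKM in OE13-2KR/oswox13-1, against 7.80 and 8.47 in OE13. Within a line the replicates were nearly equal, so the gap between lines exceeded the gap within either. Its difference was -0.73 (SE 0.20, limma adjusted p = 0.199).

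OsIAA8 (Os02g0723400, chr2:30064358-30066172, plus strand) measured 6.50 and 1.94 FPKM against 9.77 and 10.7. OE13 was the steadier line, and replicate 2 of OE13-2KR/oswox13-1 was far below the rest. The difference of -1.26 (SE 0.46, limma adjusted p = 0.233) was -0.58 without that library, while without replicate 1 it was -1.93. OsIAA24 and OsIAA10 complete the 6 and were singled out after their values were seen. OsIAA24 measured 45.0 and 59.1 FPKM against 74.5 and 77.2, and OsIAA10 33.0 and 12.6 against 40.8 and 64.5. Neither overlapped, and OsIAA10 was again lowest in OE13-2KR/oswox13-1 replicate 2 and highest in OE13 replicate 2.

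The most abundant Aux/IAA transcript, OsIAA17 (Os05g0230700, chr5:7950915-7954374, plus strand), measured 311 and 133 FPKM against 354 and 288. Replicate 1 of OE13-2KR/oswox13-1 lay between the OE13 libraries, so the lines overlapped. The difference was -0.65 (SE 0.42, limma adjusted p = 0.419), and -0.039 without OE13-2KR/oswox13-1 replicate 2. Summed over the family, Aux/IAA transcripts reached 1042 and 835 FPKM against 1225 and 1210, and without OsIAA17 they reached 731 and 701 against 871 and 921. Neither sum overlapped, and the first did not overlap after median-ratio scaling either (1034 and 889 against 1175 and 1159).

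IAA6 (Os01g0741900, chr1:30975765-30979337, plus strand), which the deposited description ties to drought tolerance and tiller outgrowth, ran against most of its family. It measured 163 and 168 FPKM in OE13-2KR/oswox13-1, against 130.2 and 139 in OE13, where both libraries were lower. The difference was 0.30 (SE 0.17, limma adjusted p = 0.360), and its sign was the same in each of the alternative settings run. The other 3 with a positive difference were OsIAA18 (0.31), OsIAA19 (0.22) and Os03g0742800 (0.093), none called. Os03g0742800 overlaps OsIAA13 on the opposite strand, and reads of such a pair cannot be separated unless the counting used strand, on which the sources used here say nothing. OsIAA13 itself, known for its part in rice lateral root formation, measured 44.4 and 85.7 FPKM against 90.5 and 61.3, with overlap.

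**Figure D2:**
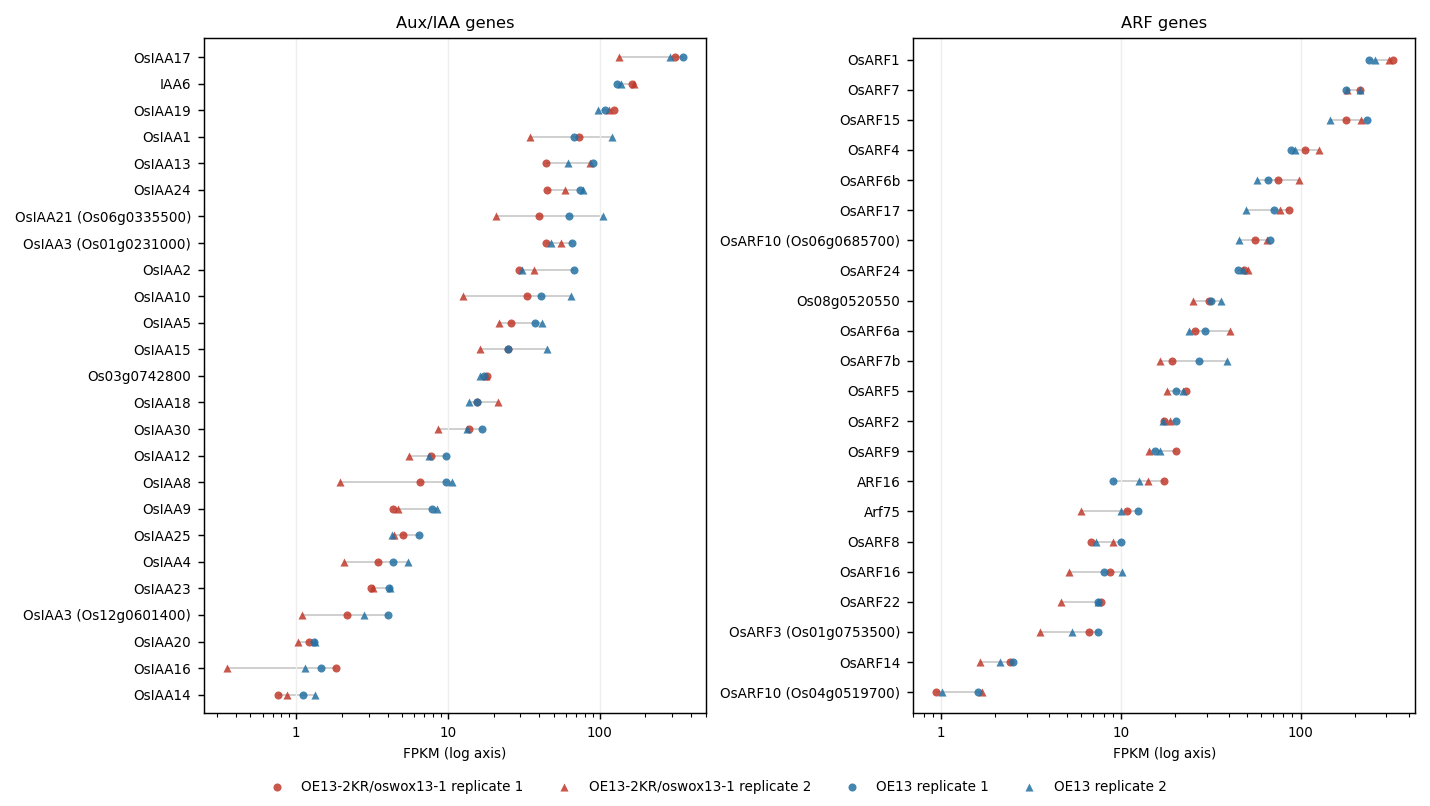
FPKM in each of the 4 libraries (log axis) for the tested Aux/IAA genes and all but 1 of the 23 tested ARF genes, ordered by mean level, with 1 mark per library. OsIAA21 and OsIAA10 show wide gaps between replicates, while IAA6 and OsARF1 are higher in both OE13-2KR/oswox13-1 libraries.

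The ARF genes, whose proteins read the auxin signal at promoters, lay on both sides of 0. Of 23 tested, 12 had a positive (52.2%, beside 43.2% of all tested genes) and 11 a negative difference. The median was 0.0086, beside -0.083 over all tested genes. In each direction 1 was called (4.35%, beside 8.00% higher and 12.0% lower of all tested genes). The positive ones numbered 15 after median-ratio scaling and 16 after quantile normalisation. Libraries did not overlap for 7 on the higher side (30.4%, beside 23.4%) and 2 on the lower (8.70%, beside 32.8%). Summed ARF transcripts reached 1342 and 1382 FPKM against 1241 and 1151, without overlap. The ratio of summed Aux/IAA to summed ARF, repressor to factor transcripts, was 0.777 and 0.604 in OE13-2KR/oswox13-1, against 0.987 and 1.05 in OE13, also without overlap. Sums are weighted by the few abundant members, and no p is given for them. The ARF sum and the ratio leave out ARF8, which the words used to choose members miss and which was looked up after values were seen. It measured 111 and 88.8 FPKM against 143 and 149, lower in both OE13-2KR/oswox13-1 libraries. The sum of the dividing cell markers, which rests on 2 genes, separated the lines in the same direction as the ARF sum, and its part was not tested.

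OsARF7b (Os08g0520500, chr8:25870837-25871444, minus strand), a short gene model of the factor family, measured 19.2 and 16.5 FPKM in OE13-2KR/oswox13-1, against 27.1 and 39.0 in OE13. Both OE13 libraries were higher, with a difference of -0.83 (SE 0.24, limma adjusted p = 0.203). Its neighbour Os08g0520550, also described as an auxin response factor, measured 30.9 and 25.3 against 31.7 and 36.0, a difference of -0.26 that was not called.

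The most abundant ARF, OsARF1 (Os11g0523800), measured 325 and 308 FPKM against 240.3 and 261. Both OE13-2KR/oswox13-1 libraries were higher, with a difference of 0.34 (SE 0.18, limma adjusted p = 0.341). OsARF7 (Os02g0557200), next in mean level, measured 213 and 181 against 178 and 214. It overlapped fully, with a difference of 0.0086 (SE 0.20, limma adjusted p = 0.984). OsARF6b (Os12g0613700) measured 75.1 and 97.6 against 65.5 and 57.0, and ARF16 (Os06g0196700) 17.3 and 14.1 against 9.04 and 12.6. In both, the lines did not overlap and the differences were 0.48 and 0.51, with limma adjusted p of 0.277 and 0.307. OsARF4, which the deposited table links to grain size, was likewise higher in both OE13-2KR/oswox13-1 libraries, at 106 and 127 against 88.6 and 92.9.

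Among the SAUR genes, 36 of 45 lay under 1 FPKM, so the family is read here through 9 members. Of these, 6 had a positive (66.7%, beside 43.2% of all tested genes) and 3 a negative difference, with a median of 0.19 beside -0.083 over all tested genes. Of the 9, 2 were called, both higher (22.2%, beside 8.00% of all tested genes). Libraries did not overlap for 5 on the higher side (55.6%, beside 23.4%) and 2 on the lower (22.2%, beside 32.8%). The split of 6 and 3 was the same after both scalings. The calls depend on single libraries, and with 1 library left out the median was 0.12 to 0.19. With no filter on low values the median over 41 SAUR genes was -0.047, beside -0.031 over all genes, and 27 of the 41 had a negative difference. Summed SAUR transcripts stood at 190.5 and 193 FPKM against 164 and 162, without overlap.

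SAUR39 (Os09g0545300, chr9:21565770-21566461, minus strand) is described in the deposited table as a negative regulator of auxin synthesis and transport. It measured 34.9 and 27.4 FPKM in OE13-2KR/oswox13-1, against 20.3 and 19.9 in OE13. The OE13 libraries were nearly equal and both lower, with a difference of 0.60 (SE 0.20, limma adjusted p = 0.217). SAUR39 stands at the edge of a tandem cluster of 10 SAUR genes on chromosome 9, between 21565770 and 21609952. Only SAUR39 and OsSAUR40 of that cluster reached 1 FPKM. OsSAUR40 measured 4.89 and 3.58 FPKM against 4.73 and 6.19, with overlap, so the neighbours did not share a pattern. Reads of near-identical cluster members may also be split between them.

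OsSAUR56 (Os10g0510500, chr10:19631259-19632262, minus strand), the SAUR gene with the highest mean level, measured 49.9 and 55.9 FPKM against 38.9 and 36.5. Both OE13 libraries were lower, and the difference was 0.48 (SE 0.17, limma adjusted p = 0.233). OsSAUR12 measured 33.4 and 42.1 against 36.5 and 38.4, which overlap, with a difference of 0.0032. OsSAUR29 measured 8.97 and 9.93 against 8.14 and 6.48 (limma adjusted p = 0.415), and another gene on the opposite strand covers 79.8% of it. OsSAUR19 had the smallest p of the lower members, at 4.08 and 5.26 against 7.82 and 5.99, a difference of -0.48 (SE 0.24, limma adjusted p = 0.331).

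All 6 tested GH3 members had a negative difference as deposited (5 after either scaling), beside 56.8% of all tested genes. The median was -0.31, beside -0.083 over all tested genes, yet in every one the lines overlapped and none was called. Transcripts of the GH3 members were scarce, with sums of 15.1 and 12.7 FPKM against 18.5 and 25.5, without overlap. The sum leaves out JAR1 and GH3-8, among others, which the words used to choose members miss. JAR1 alone, at 49.5 and 56.6 against 30.6 and 31.9, exceeded the sum in every library. Both JAR1 and GH3-8 lay in the direction opposite to the sum. A large piece of the top member sum came from 1 gene. OsGH3-4 (Os05g0500900) measured 2.06 and 4.59 against 4.06 and 11.7, the last of these alone far above the rest. Its difference of -0.95 (SE 0.53, limma adjusted p = 0.358) was -0.29 without OE13 replicate 2.

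The remaining tested GH3 members were low in all libraries. OsGH3-11 measured 3.72 and 0.812 FPKM against 4.51 and 3.17 (limma adjusted p = 0.441). OsJAR2, whose enzyme class acts on jasmonate rather than auxin, measured 3.32 and 1.54 against 3.52 and 2.98 (limma adjusted p = 0.547). OsGH3-1 and OsGH3-7 differed by -0.27 and -0.22 (limma adjusted p = 0.601 and 0.643), within the replicate spread, and 90.5% of OsGH3-7 is covered by an opposite-strand gene. The jasmonate-conjugating gene JAR1 and GH3-8, the latter known in rice for auxin conjugation, fall outside the words used to choose members and were looked up after values were seen. Opposite-strand genes cover 78.1% of GH3-8. JAR1 measured 49.5 and 56.6 FPKM against 30.6 and 31.9, and GH3-8 measured 9.45 and 22.5 against 6.80 and 8.57. Both were higher in each OE13-2KR/oswox13-1 library, opposite in sign to the 6 tested members, with differences of 0.74 (limma adjusted p = 0.194) and 0.86 (limma adjusted p = 0.313).

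The genes grouped here as efflux carriers leaned toward higher levels in OE13-2KR/oswox13-1, through the PILS genes. PILS genes enter this group by the words of their description, though their proteins are described above as holding auxin inside the cell. Of 6 tested, 4 had a positive difference as deposited (66.7%, beside 43.2% of all tested genes) and all 6 after either scaling. The median was 0.36, beside -0.083 over all tested genes. Of the 6, 3 were called, all higher (50%, beside 8.00% of all tested genes), and the same 3 did not overlap (beside 23.4%). These calls depend on single libraries, and with 1 library left out the median was 0.31 to 0.40. OsPILS1 (Os09g0491740, chr9:18978153-18983471, minus strand) was the most abundant, at 242 and 171 FPKM against 101 and 149.6. Its replicates were wide apart in both lines, and the difference was 0.73 (SE 0.28, limma adjusted p = 0.248). It was 0.44 if OE13 replicate 1 was left out and 0.48 if replicate 1 of the other line was, and in both cases the unadjusted call was lost.

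OsPILS7a (Os09g0554300, chr9:21963654-21968219, plus strand) measured 61.4 and 70.8 FPKM against 39.6 and 47.8. Both OE13-2KR/oswox13-1 libraries were higher, with a difference of 0.59 (SE 0.19, limma adjusted p = 0.216). OsPILS2 (Os08g0191000, chr8:5322769-5325114, plus strand) was the steadiest, at 14.6 and 15.4 against 10.2 and 10.1. Its lines were separated by far more than their replicates, with a difference of 0.52 (SE 0.19, limma adjusted p = 0.227). OsPILS6a measured 23.2 and 19.3 against 19.5 and 17.3, with overlap (limma adjusted p = 0.598). PIN10A and OsPIN5a, the PIN genes that were tested, differed by -0.043 and -0.042, and their libraries overlapped. For PIN10A 86.9% is covered by an opposite-strand gene. The other 6 carrier genes lay under 1 FPKM.

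BG1 (Os03g0175800, chr3:4038341-4039509, minus strand), a regulator of auxin response and transport that sets grain size, measured 10.5 and 3.48 against 13.7 and 18.3. Both OE13 libraries were higher, with a difference of -1.23 (SE 0.47, limma adjusted p = 0.245) that was -0.55 without OE13-2KR/oswox13-1 replicate 2.

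**Figure D3:**
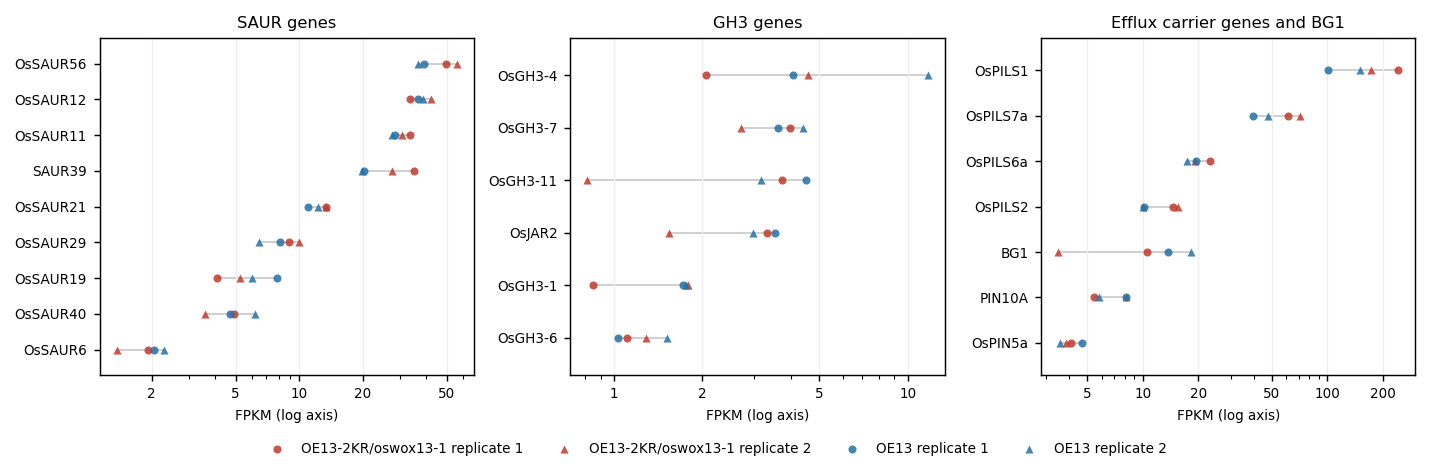
FPKM in each library (log axis) for the tested SAUR, GH3 and efflux carrier genes and BG1, with 1 mark per library. OsSAUR56, SAUR39 and the 3 called PILS genes are higher in both OE13-2KR/oswox13-1 libraries, while the marks of every GH3 gene overlap between lines.

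**Figure D4:**
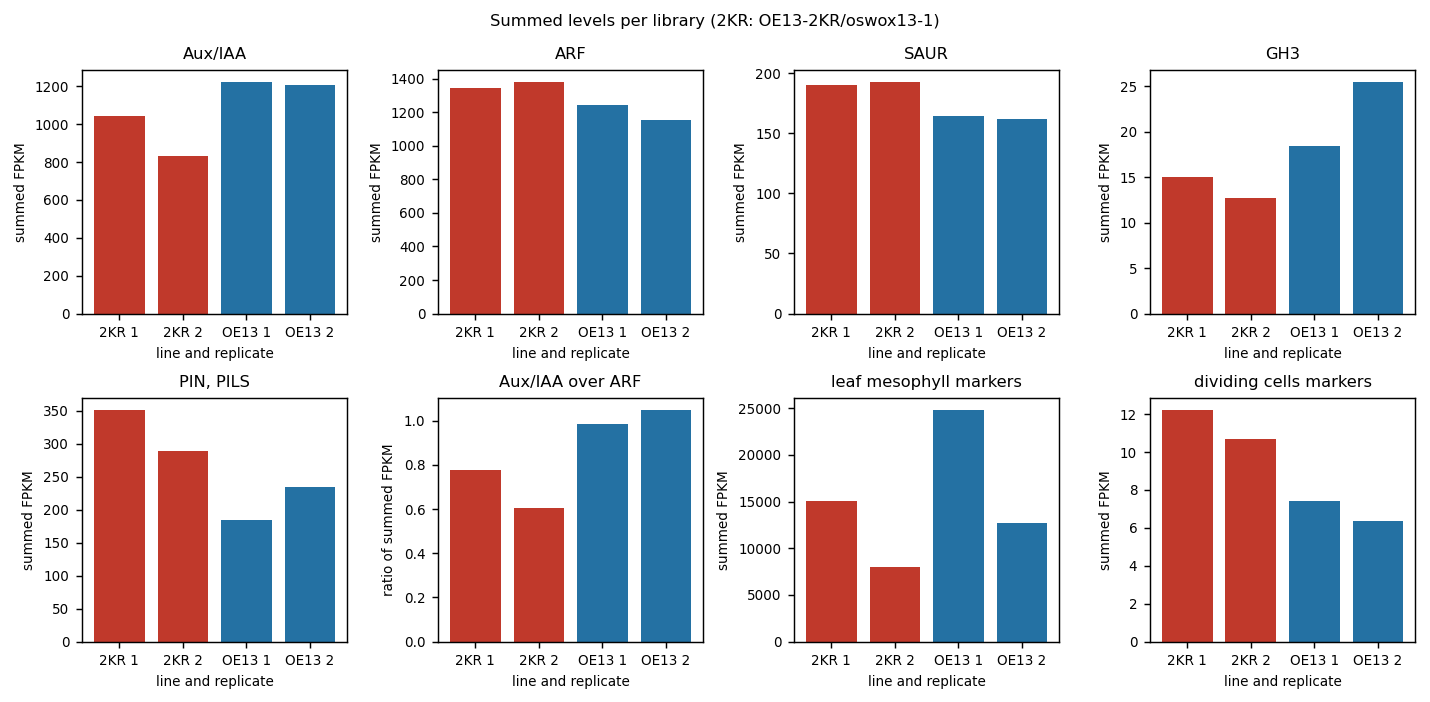
Summed FPKM in each library, 1 bar per library, of each family and of the mesophyll and dividing cell markers, with the ratio of summed Aux/IAA to summed ARF. The Aux/IAA sum is lower in both OE13-2KR/oswox13-1 libraries (1042 and 835 against 1225 and 1210), and the ARF, SAUR and efflux carrier sums are higher.

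Further auxin genes found by words numbered 27, and 14 of them were tested. They cover receptors, synthesis, uptake, conjugate release and auxin binding, and 4 are auxin-repressed, dormancy-associated genes. Of the 14 tested, 3 had a positive and 11 a negative difference (78.6%, beside 56.8% of all tested genes), with a median of -0.34. The 11 include the auxin-binding protein gene Os04g0288100, which passed the filter through OE13 alone. At unadjusted p 0 were called higher and 2 lower (14.3%, beside 12.0%). Both lower calls and 4 of the 11 negative differences came from the dormancy-associated genes. None passed an adjusted p of 0.05. The receptor gene TIR1 measured 19.1 and 22.3 FPKM against 14.7 and 18.0, and 88.0% of it is overlapped by an antisense gene. A second receptor gene, Os_F0720, measured 14.3 and 14.0 against 17.5 and 17.1. They lay in opposite directions, without overlap in either, at limma adjusted p of 0.408 and 0.431.

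For synthesis, FIB, a tryptophan aminotransferase gene, measured 35.2 and 78.5 FPKM against 98.5 and 76.9, and YUCCA7, of the flavin monooxygenase step, 12.8 and 30.0 against 34.9 and 28.1. In both genes replicate 1 of OE13-2KR/oswox13-1 was far below the other 3 libraries, and the lines overlapped. The other 9 synthesis genes averaged under 1 FPKM. Among them, OsYUCCA9 measured 0.226 and 0.0503 against 0.564 and 1.78, and YUCCA1 0.172 and 0.0559 against 0.489 and 0.896, so both were lower in each OE13-2KR/oswox13-1 library. YUCCA5, the highest of the 9 in mean level, went the other way without overlap, at 1.32 and 0.803 against 0.497 and 0.451. The influx carrier gene OsLAX1 measured 41.1 and 24.4 against 49.1 and 52.4 (limma adjusted p = 0.271), and OsLAX3 differed by -0.38 with overlap (-0.095 without OE13 replicate 2). Opposite-strand genes cover 85% and 84.3% of this pair. OsILR1, of the enzymes that release auxin from conjugates, measured 93.7 and 85.7 against 53.5 and 75.1, with both OE13 libraries lower (limma adjusted p = 0.290).

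Of the auxin-binding protein genes, Os04g0288100 measured 0.259 and 0 FPKM against 0.702 and 5.53, a difference of -1.57 that was -0.60 without OE13 replicate 2. It reached the mean of 1 FPKM only through OE13, and Os12g0529400 differed by -0.26 with overlap. The called pair were genes of the auxin-repressed, dormancy-associated family, named for transcripts that decline when auxin is supplied. ARP1 measured 345 and 268 FPKM against 471 and 521, and Os03g0342900 measured 712 and 426 against 930.3 and 1240.5. Neither overlapped, with differences of -0.70 (SE 0.21, limma adjusted p = 0.206) and -0.96 (SE 0.32, limma adjusted p = 0.218). The second was -0.59 without OE13-2KR/oswox13-1 replicate 2. For ARP1 60.1% is covered on the opposite strand. All 4 genes of that family had lower values in both OE13-2KR/oswox13-1 libraries, beside 32.8% of all tested genes. For Os08g0453200 the nearest libraries were almost equal, at 51.1 and 48.8 FPKM against 51.7 and 72.6 (limma adjusted p = 0.487). Os09g0437500 measured 99.1 and 97.5 against 115 and 109 (limma adjusted p = 0.535).

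The authors' deposited table of genes higher in OE13 holds 1207 genes, 1135 of them with exactly 1 RAP identifier. Of these, 1112 were found among the 33744 genes with FPKM values, and 5 of the 122 auxin members were among them. In the authors' deposited table the log2 fold was 1.13 for OsIAA21 (their adjusted p = 0.189) and 0.65 for OsIAA9 (their adjusted p = 0.379). The same authors' deposited table lists OsSAUR55 at 4.60, OsSAUR15 at 4.47 and OsSAUR57 at 1.45. No adjusted p is printed there for the first pair, and for OsSAUR57 the authors' deposited table gives 0.551. All 3 lay under 1 FPKM: OsSAUR55 measured 0.0329 and 0 against 0.288 and 0.577, and OsSAUR15 was 0 in both OE13-2KR/oswox13-1 libraries, against 0.0350 and 0.0327. OsSAUR57 measured 0.276 and 0.209 against 0.351 and 0.761, so these folds stand on transcripts barely above 0. Of the other auxin genes, the authors' deposited table lists OsYUCCA9 at 1.97, YUCCA1 at 1.78 and the conjugate hydrolase gene Os07g0249800 at 1.63, with adjusted p of 0.318, 0.490 and 0.410, and these also averaged under 1 FPKM.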

How the data were processed

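Per the labels' protocols, total RNA of leaves was sequenced in paired reads of 150 nt (the molecule label reads genomic DNA). The authors deposited 1 FPKM value for each gene in each library, per the file headers, and no source tells how it was computed. Tools in the submitters' processing notes, without roles, are DESeq2 1.38.3, HISAT2 2.2.1 and featureCounts 2.0.0, with the build IRGSP-1.0. Lists deposited by the authors give, per the file headers, a linear fold ratio, a log2 fold, a p-value and an adjusted p-value. The list of genes lower in OE13 was not used here, and 11 unlabelled value columns were left out. In the list used, 1107 of 1112 genes found in the FPKM table had a higher mean in OE13.

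No counts were among the files, so limma 3.58.1 (R 4.3.3, trended variance, 2 residual and 3.30 prior degrees of freedom) was fitted to log2(FPKM + 1) of genes with a mean of at least 1 FPKM and tested on simulated data. An exact permutation test of 2 against 2 cannot go below 0.333. Members and lists were chosen with earlier results of these data known. Per family, the 4 members with the smallest p and the 2 with the highest mean were named, with every member in the authors' list and, of other auxin genes, the 2 of each role with the smallest p. Some genes that the rule names are not reported here. IAA6 was placed by its gene name. Replicate numbers were not shown to pair libraries. Alternatives were other scalings, pseudocounts and filters, a replicate block, removal of members overlapped on the other strand, and leaving out each library.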

Additional observations from a re-analysis of the deposited data

How the results depend on the processing

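No member passed an adjusted p of 0.05 under any alternative run; among named genes the lowest was 0.0857, and 367 of 375 values of 38 named genes kept their direction. With the replicate block, 2 members were higher and 7 lower (6 and 8 without): higher calls went from 3 to 1 for efflux carriers, 2 to 1 for SAUR and 1 to 0 for ARF, lower calls from 6 to 5 for Aux/IAA and 0 to 1 for GH3 (OsGH3-4, p = 0.0191, limma), and BG1 lost its call (p = 0.0565, limma); same-numbered deviations correlated at -0.091 over 20174 genes. Of all tested genes, 6.14% were called higher and 10.5% lower with the replicate block, beside 8.00% and 12.0% without it. Calls therefore fell among genes in general, not only among the auxin members. Median-ratio scaling and quantile normalisation moved the higher share of unadjusted calls from 40.0% to 52.0% and 52.8%. They moved the median of all genes from -0.083 to 0.0033 and 0.034. These medians moved by more than the replicate spread. That spread was small, for SAUR 0.0079. Median-ratio scaling gave 0.11 for ARF, 0.28 for SAUR and 0.45 for efflux carriers. Less the median of all genes, these were 0.105, 0.278 and 0.448, beside 0.0913, 0.271 and 0.441 as deposited, so they hardly moved. Quantile normalisation gave 0.026 for all members, 0.054 for ARF, 0.25 for SAUR, -0.13 for GH3 and 0.44 for efflux carriers. Less the median of all genes, ARF was then 0.0206, SAUR 0.214, GH3 -0.163 (-0.232 as deposited) and efflux carriers 0.403. A mean of at least 5 FPKM gave -0.040, 0.095 (ARF) and 0.52 (efflux). For GH3 it left 1 gene, OsGH3-4 at -0.95, so that value is no family median. No filter gave -0.052, -0.047 (SAUR) and -0.017 (efflux). A pseudocount of 0.1 put GH3 at -0.48. Without members covered on the other strand SAUR was 0.096 and efflux carriers 0.52. Leaving out 1 library gave 2 to 4 higher and 1 to 15 lower calls, and medians of -0.21 to -0.044 (all members), -0.54 to -0.30 (Aux/IAA), -0.15 to 0.081 (ARF), 0.12 to 0.19 (SAUR), -0.48 to -0.063 (GH3) and 0.31 to 0.40 (efflux carriers). Without IAA6, an alternative chosen after seeing the data, the Aux/IAA median was -0.44. Signs turned for 5 named genes: OsARF7 (-0.042 after quantile normalisation, -0.12 to 0.14 with 1 library left out), OsSAUR12 (-0.16 to 0.17), OsJAR2 (-0.74 to 0.026), OsGH3-1 (-0.57 to 0.025) and Os12g0529400 (-0.60 to 0.092); the cause was not tested. At a mean of at least 5 FPKM 5 named genes give no value. Depth is unknown, so no limit can be set for genes listed at 0.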

Other observations

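Other genes described with auxin, outside the words used and looked up after values were seen, were these. ARF8 (Os04g0671900) measured 111 and 88.8 FPKM in OE13-2KR/oswox13-1, against 143 and 149 in OE13, with both OE13 libraries higher (difference -0.55, limma adjusted p = 0.225). The amidohydrolase gene Os01g0560000, of the enzyme class that releases auxin from conjugates, measured 57.8 and 50.1 against 34.2 and 37.0, with both OE13 libraries lower (difference 0.58, limma adjusted p = 0.208). The phloem sucrose transporter gene OsSUT1 measured 111 and 118 against 101 and 78.8, and the guard cell genes, 3 in number, summed to 40.1 and 59.0 against 44.3 and 31.8. The root marker gene LSI1 measured 22.5 and 27.1 against 23.1 and 18.7.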
